A study of Homo sapiens with 9 samples.

Results

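The genes described here had higher levels of newly made RNA a day after SOX9 was removed from human cranial neural crest cells, with a mean change at 3 h under a set limit. They numbered 119 of the 18970 gene symbols counted, and they were chosen by their own measurements. SLAM-seq reads with a T>C conversion, which mark RNA made during a 2 h pulse of 4-thiouridine (4sU), were scaled so that those of each library sum to 1000000 (T>C CPM). A mean of at least 3 T>C CPM over the 9 libraries was met by 10731 genes. Of these, 296 had a log2 ratio of 24h to the 0h library of the same culture of at least 0.4 in all 3 cultures, after 0.5 was added to each CPM. The mean of the 3 ratios for 3h lay below 0.25 in 119 of them. LHX9, RGS4 and CEBPD were to be left out, but none of these met the conditions. The T>C values at 0h, 3h and 24h therefore selected the members, so every T>C change given for them is a description. Unconverted and total reads of the same libraries share that contrast and are described likewise. Counts of members called by a fit over all genes are printed beside the share of all genes called. For alternative fits they stand beside the number of all genes called, higher or lower. Nothing about the members is read from these counts.

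H9 cells, a long-used line of human embryonic stem cells, gave all 9 libraries. They were differentiated into cranial neural crest cells (CNCCs) and used at passage 4. Both alleles of SOX9 carried a tag of FKBP12-F36V, mNeonGreen and V5 at the C terminus, so the controls carried it too, and no untagged cells were analysed here. Each of the 3 groups held the same 3 cultures: S9CC13_R6, S9CC47_R5 and S9CC47_R6, named for 2 clones (S9CC13 and S9CC47) and 2 differentiation batches (R5 and R6). The 0h group had vehicle, and the 3h and 24h groups had 500 nM dTAGV-1, a small molecule that brings the tagged protein to a ubiquitin ligase. The labels put relative SOX9 at 100% for 0h and at 0% for 3h and 24h. 4sU (100 uM) was given 1 h into the 3h treatment and 22 h into the 24h treatment. Without untagged cells given the compound, effects of dTAGV-1 itself cannot be told apart from those of SOX9 loss. In what follows, values in 3 libraries are given in the order S9CC13_R6, S9CC47_R5, S9CC47_R6.

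SOX9 is an HMG-box transcription factor that drives chondrogenesis and is also active in the neural crest, the migratory population that makes much of the facial skeleton. 4sU replaces part of the uridine in RNA made during the pulse, and alkylated 4sU is read as C in place of T. T>C reads thus sample recent synthesis. Reads without a conversion come mostly from RNA that was already there, together with new molecules in which no conversion was caught. A transcript that turns over fast, such as those of many signalling feedback genes, has a larger T>C share of its reads than a long-lived one.

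Total reads per library ranged from 16955633 to 28782678 and T>C reads from 3130673 to 5475800, which was 15.9% to 21.3% of all reads. Of all T>C reads, the members took 0.451%, 0.503% and 0.453% at 0h, 0.438%, 0.477% and 0.564% at 3h, and 0.759%, 0.758% and 0.878% at 24h. All 20 markers of cranial crest mesenchyme reached 1 CPM in total reads, with a summed level of 4746 to 4802 CPM at 0h and 6999 to 7383 CPM at 24h. Of the pluripotent cell markers 4 of 10 reached 1 CPM and TDGF1 was at 0. Their sum was 831 to 910 CPM at 0h and 764 to 843 CPM at 24h, so such markers were not absent. Of the neural markers 5 of 16 did, with SOX1 and HES5 at 0 and a sum of 178 to 198 CPM at 0h and 152 to 183 CPM at 24h. Smooth muscle and pericyte markers summed to 302 to 380 CPM at 0h and 326 to 448 CPM at 24h. The Schwann cell and glial markers summed to 13.9 to 20.9 CPM at 0h and 1.56 to 1.91 CPM at 24h, and the cartilage markers to 658 to 720 CPM at 0h and 367 to 466 CPM at 24h. No member is on any of these marker lists, and the part of such shifts in the members' values was not tested. In bulk samples, a change in the number of cells of a type and a change in RNA per cell cannot be told apart.

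The members' median mean T>C level was 20.8 CPM, below the median of 41.3 CPM over the 10731 genes that passed the level condition. In 18 members at least 1 library held under 10 T>C reads. Their mean log2 ratio of 24h to 0h had a median of 0.72 (0.43 the lowest, 1.80 the highest), and it was at least 1 in 16. The lowest of the 3 ratios lay just inside the limit of 0.4 in RAB32 (0.401) and APIP (0.402), and just outside it in RGS5 (0.399) and MOB1A (0.399). For the 3h limit of 0.25, ACSL1 (0.247) and TSHZ1 (0.247) lay just inside and DENND1B (0.254) and TFAP2A (0.256) just outside. For the level limit of 3 CPM, NRCAM (3.16) and TAS2R14 (3.27) lay inside and PARM1 (2.89) and TMEM86A (2.85) outside. These neighbours differed by far less than the spread between cultures, so membership near the limits is a matter of small differences.

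Of the 119 members, 111 had all 3 of their 24h T>C levels above all 3 at 0h, against 12.3% of the 10731 genes, and 86 had them above all 3 at 3h, against 9.58%. The rule set both counts, so nothing is read from them. The DESeq2 fit over 12037 genes called 37 of the 119 higher at 24h than at 0h at an adjusted p-value under 0.1, beside 2.38% of all genes tested higher and 2.59% lower. With the culture as a block and no surrogate variable it called 59 (of 722 genes called higher or lower). With block and surrogate variable it called 21 (of 354). With 1 culture left out it called 4 without S9CC13_R6 (of 54) and 2 without S9CC47_R6 (of 69). Without S9CC47_R5 it called 16, of fewer than 354 genes. The rule used this contrast, so nothing is read from these counts either. Members that were called had a median mean level of 57.9 T>C CPM, and the 82 that were not called had one of 13.4 T>C CPM. Against 3h, 16 members were called higher at 24h (0.54% of all genes). The count was 44 with the culture as a block (of 530 genes called higher or lower), 6 with block and surrogate variable (of 60), and 2 to 5 with a culture left out (of 4 to 30). All 16 members called against 3h in the main fit were also called against 0h.

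**Figure D1:**
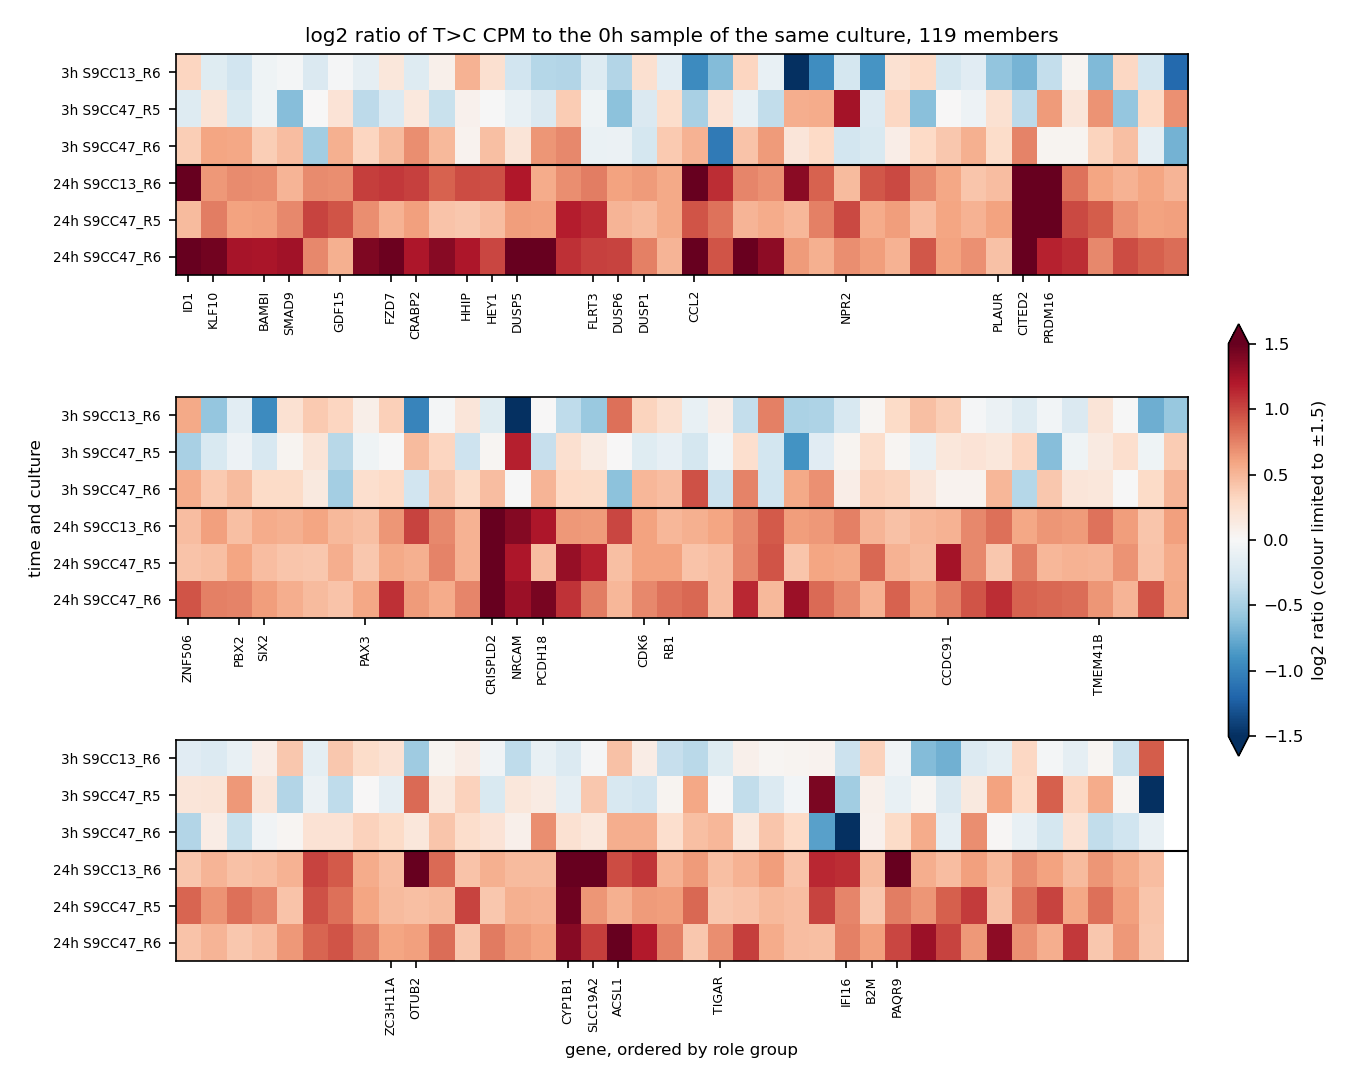
Log2 ratio of T>C CPM to the 0h library of the same culture, for each of the 119 members (columns, ordered by role group, with names for the 38 given in every library) at 3h and 24h in the 3 cultures (rows). All 24h cells are at or above 0.4, as the rule requires, while the 3h cells are mixed and were above 0 in 91 members in S9CC47_R6 but in 46 in S9CC13_R6.

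The 3h values differed between cultures. The median ratio of 3h to 0h over the members was −0.11 in S9CC13_R6, 0.01 in S9CC47_R5 and 0.29 in S9CC47_R6, where the medians over the 10731 genes were −0.02, −0.02 and 0.02. At 24h the members' medians were 0.63, 0.60 and 0.78. In S9CC47_R6, 39 members (32.8%) already had a 3h ratio of at least 0.4, where 16.5% of the 10731 genes did. The same limit was passed by 9 members (7.56%, against 14.6%) in S9CC13_R6 and by 16 (13.5%, against 12.1%) in S9CC47_R5. The low 3h value thus holds for the mean of the cultures and not for each one, since 101 members had a 3h ratio above 0 in 1 or 2 cultures, 13 in all 3 and 5 in none. The 5 that lay below their 0h value in every culture were FLRT3, IFI16, PLGRKT, TAS2R14 and DUSP6. In S9CC47_R6 at 3h the unconverted reads of the members were also higher, with a median ratio of 0.38 against 0.04 in S9CC13_R6 and −0.09 in S9CC47_R5. At 24h the largest of a member's 3 ratios was found in S9CC47_R6 for 68 members, in S9CC47_R5 for 26 and in S9CC13_R6 for 25. S9CC13_R6 and S9CC47_R6 share batch R6, and S9CC47_R5 and S9CC47_R6 share clone S9CC47. Each pairing of clone and batch held 1 culture, so neither part in this spread can be told apart from differences between cultures. The 3h library of S9CC13_R6 also had the fewest T>C reads of all libraries (3130673). Its T>C share was the lowest, 15.9% beside 18.1% and 19.5% in the other cultures at 3h. The part of such library differences in the 3h ratios was not tested.

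DESeq2 called 1 member higher at 3h (1.01% of all genes) and 1 lower (0.789%). The first was CRABP2, with a log2 change in T>C reads of 0.33 (SE 0.0918), and the second DUSP6, with −0.32 (SE 0.0872).

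The largest change at 24h was that of CITED2, a transcriptional co-regulator that binds CBP and p300. CITED2 lies on the minus strand at chr6:139371807-139374648 (hg38). Its T>C level was 8.08, 12.3 and 9.61 CPM at 0h, 4.79, 9.28 and 16.4 CPM at 3h, and 25.2, 35.7 and 49.7 CPM at 24h. Every 24h library lay above every earlier one, while at 3h S9CC47_R6 lay above its 0h value and the other cultures below theirs. Its mean log2 ratio to 0h over the cultures was −0.12 ± 0.76 for 3h and 1.80 ± 0.45 for 24h (SD, n = 3). Unconverted reads of CITED2 went from 0.747, 0.591 and 0.513 CPM at 0h to 2.40, 1.43 and 3.91 CPM at 24h, again without overlap. The T>C share of its reads was 78.8% ± 6.79 at 0h and 78.7% ± 7.24 at 24h, so new and unlabelled reads were higher in like proportion. The RefSeq promoter window of CITED2, 250 bases before to 50 after the start site (GRCh38.p14, chr6:139374599-139374898, minus strand, written 5′ to 3′ along the gene), is printed because it holds a match to the SOX core motif AACAAT, on the opposite strand, whose letters are in capitals:
CITED2: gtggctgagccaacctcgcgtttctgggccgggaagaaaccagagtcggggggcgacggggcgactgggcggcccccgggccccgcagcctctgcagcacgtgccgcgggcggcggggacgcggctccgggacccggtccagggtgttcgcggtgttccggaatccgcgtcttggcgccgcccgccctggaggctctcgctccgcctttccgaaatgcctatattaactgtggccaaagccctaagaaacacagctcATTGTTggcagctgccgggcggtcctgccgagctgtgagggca

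CRISPLD2 had the next largest ratio, and in CRISPLD2 and CYP1B1 unconverted reads were higher too. CRISPLD2 encodes a secreted protein of the cysteine-rich family, and lies at chr16:84819985-84920768 on the plus strand. It had 9.85, 12.9 and 7.39 T>C CPM at 0h, 8.62, 13.2 and 10.4 at 3h, and 34.0, 37.5 and 28.1 at 24h, a mean log2 ratio of 1.70 ± 0.18 at 24h (SD, n = 3). Its 0h and 3h libraries mixed and its 24h libraries stood apart. CYP1B1, a cytochrome P450 that oxidises steroids, retinoids and xenobiotics, measured 13.6, 15.2 and 17.4 T>C CPM at 0h, 11.8, 13.8 and 20.4 at 3h, and 51.7, 42.8 and 45.7 at 24h (1.57 ± 0.28). Its unconverted reads had the largest change of any member, 1.74 ± 0.26, from 11.2, 5.09 and 8.86 CPM at 0h to 32.6, 22.3 and 29.8 CPM at 24h. The T>C share of CYP1B1 was 32% ± 10.6 at 0h and 30.2% ± 2.53 at 24h.

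In PRDM16, a zinc finger protein with a PR domain, the change was mainly in the T>C reads. PRDM16 had 1.77, 2.34 and 2.77 T>C CPM at 0h, 1.28, 3.92 and 2.88 at 3h, and 7.62, 9.13 and 6.76 at 24h. The 24h libraries did not overlap the others. The log2 ratio was 1.58 ± 0.38 in T>C reads and 0.36 ± 0.48 in unconverted reads (SD, n = 3; 0.09 without S9CC13_R6), and the share went from 41.8% ± 2.12 to 64.4% ± 8.78. These are small counts, 4 to 37 T>C reads per library, and DESeq2 did not call the gene in T>C reads.

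**Figure D2:**
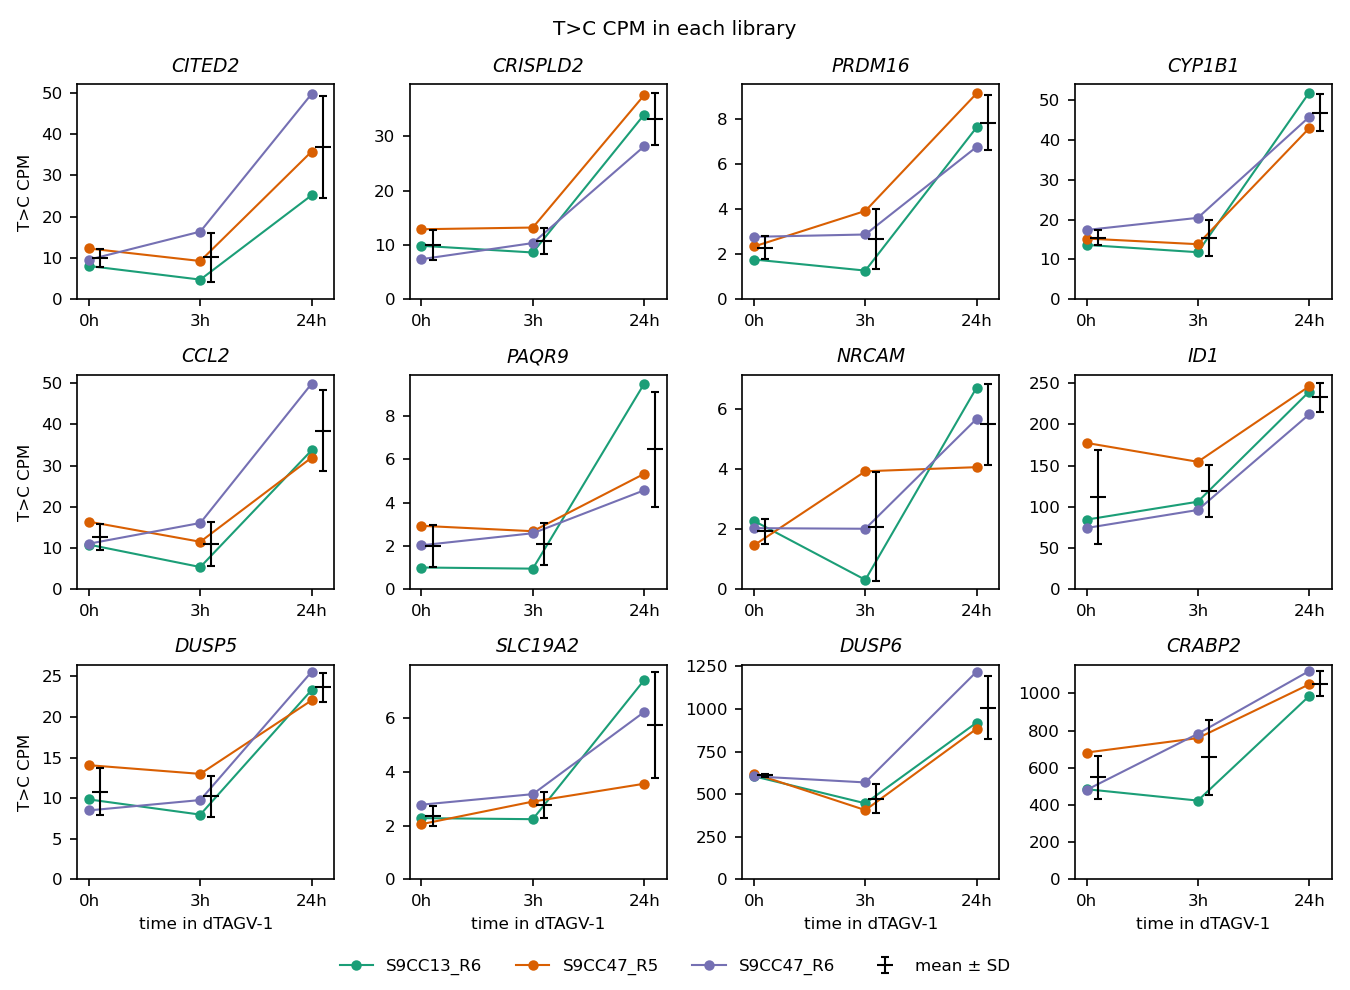
T>C CPM (linear axes from 0) of 12 members in each library at 0h, 3h and 24h, with a line for each culture and the mean ± SD of 3 cultures in black. The 10 members with the largest 24h ratios are joined by DUSP6 and CRABP2, and in all 12 every 24h level lies above every 0h level.

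By roles assigned after the members were known, 7 members belong to BMP and TGF-beta signalling, in which ligands of that family bind serine kinase receptors that phosphorylate SMAD proteins. Their 24h ratios ranged from 0.73 to 1.16 in T>C reads, and unconverted reads of all 7 were higher at 24h than at 0h in all 3 cultures. The same held for 66.4% of all members and 22.9% of the 10731 genes. ID1, an inhibitor of basic helix-loop-helix factors and a classical BMP target, measured 84.6, 178 and 74.5 T>C CPM at 0h, 106, 155 and 96.4 at 3h, and 240, 246 and 212 at 24h. S9CC47_R5 started high, so its ratio was the smallest, yet no 24h library overlapped the others. The mean log2 ratio of ID1 was 1.16 ± 0.59 in T>C and 1.09 ± 0.47 in unconverted reads (SD, n = 3). The promoter of ID1 (RefSeq, GRCh38.p14, chr20:31605039-31605338, plus strand) is shown for its TATA box match, TATAAA, found on both strands 33 and 31 bases before the start site and set in capitals:
ID1: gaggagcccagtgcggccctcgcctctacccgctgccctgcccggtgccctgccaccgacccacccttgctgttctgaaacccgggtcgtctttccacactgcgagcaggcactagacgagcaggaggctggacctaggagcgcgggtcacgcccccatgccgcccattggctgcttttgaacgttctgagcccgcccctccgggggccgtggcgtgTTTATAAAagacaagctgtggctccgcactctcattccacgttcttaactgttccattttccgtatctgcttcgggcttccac

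Other genes of the BMP and TGF-beta group stand at several levels of the pathway. BAMBI, a pseudoreceptor that damps the signal, had 10.4, 15.5 and 10.5 T>C CPM at 0h, 9.90, 14.9 and 13.8 at 3h, and 17.1, 24.1 and 25.2 at 24h. SMAD9, a receptor-regulated SMAD of the BMP branch, had 7.83, 10.3 and 4.44 at 0h, 7.67, 6.40 and 6.33 at 3h, and 11.3, 17.2 and 11.3 at 24h. The 24h libraries of both genes lay above all others, and the mean ratios were 0.84 ± 0.33 and 0.83 ± 0.39. KLF10, a zinc finger factor first known as TGF-beta inducible, had 14.1, 13.5 and 10.7 T>C CPM at 0h, 12.5, 15.5 and 16.4 at 3h, and 22.4, 23.3 and 30.1 at 24h. GDF15, a divergent ligand of the family and a p53 target, had 11.4, 11.7 and 10.5 at 0h, 11.2, 13.6 and 15.5 at 3h, and 18.7, 23.1 and 15.5 at 24h. KLF10 was separate at 24h, whereas for GDF15 the 3h and 24h levels in S9CC47_R6 were alike. The ligand BMP5 (0.81 ± 0.18) and TWSG1, a secreted modulator of BMPs (0.85 ± 0.34), complete the group. Beyond the members, 42 genes of a BMP and TGF-beta list were tested at 24h. Of these, 7 were called higher (BMP4, ID1, ID2, ID3, INHBA, SKIL and SMAD7) and 3 lower (BMP7, GDF11 and SMAD5). The list's median log2 change was 0.29, beside 0.00 over all genes tested, and 4 of its genes are members, chosen for that direction. Of all genes tested, 2.38% were called higher and 2.59% lower, which stands beside each list count here and below. The lists below also hold members chosen for that direction.

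FZD7, a WNT receptor, is one of 6 members in the WNT, Notch, Hedgehog and retinoic acid pathways. FZD7 had 63.2, 89.4 and 78.9 T>C CPM at 0h, 70.9, 77.4 and 110 at 3h, and 133, 128 and 219 at 24h. HEY1, a transcriptional repressor downstream of Notch, had 192, 246 and 171 at 0h, 227, 245 and 235 at 3h, and 376, 339 and 344 at 24h. Both had separate 24h libraries, with mean log2 ratios of 1.02 ± 0.48 and 0.81 ± 0.30, and in unconverted reads of 0.94 ± 0.19 and 0.51 ± 0.08 (SD, n = 3). HHIP, a membrane protein that binds and dampens Hedgehog ligands, had 6.06, 9.09 and 5.55 T>C CPM at 0h, 8.94, 9.49 and 5.75 at 3h, and 12.5, 12.2 and 13.5 at 24h. Its last exon overlaps a coding gene model on the opposite strand, and whether counting used strand is not given in the sources used here. Overlaps here and below are with the whole span of the other gene, introns included. TSPAN12, a Norrin co-receptor component, had a ratio of 1.04 ± 0.35, and TPBG, a WNT modulator at the surface, of 0.89 ± 0.47.

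CRABP2, which carries retinoic acid to its nuclear receptors, stood at 485, 682 and 481 T>C CPM at 0h, 424, 760 and 783 at 3h, and 986, 1048 and 1120 at 24h. Its 3h libraries spread widely, below 0h in S9CC13_R6 and well above it in S9CC47_R6, and the 24h libraries lay above all. Unconverted reads of CRABP2 measured 551, 993 and 604 CPM at 0h, 321, 748 and 1020 CPM at 3h, and 1141, 1350 and 1888 CPM at 24h, with the 24h libraries again highest. The share stayed low, at 15.7% ± 0.972 at 0h and 16.0% ± 1.95 at 24h. Over the wider lists at 24h, T>C calls were 2 higher and 3 lower of 37 WNT genes and 3 higher of 18 Notch genes. They were 1 higher of 12 Hedgehog genes, and 2 higher and 3 lower of 13 retinoic acid genes. Of all genes tested, 2.38% were called higher and 2.59% lower. FZD7, HEY1 and CRABP2, among those called higher, are members. The Notch genes called were HES1, HEY1 and JAG1. In the retinoic acid list, CRABP2 and RARA were called higher while CRABP1, DHRS3 and STRA6 were called lower.

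The MAP kinase group of 7 is led by dual-specificity phosphatases, which remove phosphate from ERK and related kinases and are themselves induced by the pathway. DUSP5 had 9.85, 14.1 and 8.50 T>C CPM at 0h, 7.99, 13 and 9.78 at 3h, and 23.3, 22.1 and 25.6 at 24h, with an unconverted ratio of 0.49 ± 0.45. DUSP6 had 606, 622 and 605 at 0h, 447, 407 and 570 at 3h, and 921, 885 and 1220 at 24h, so its 3 groups did not overlap: 3h was lowest and 24h highest. The mean ratios of DUSP6 were −0.38 ± 0.27 at 3h and 0.71 ± 0.27 at 24h (SD, n = 3). FLRT3, a transmembrane protein that binds FGF receptors, had 73.8, 56.9 and 74.3 T>C CPM at 0h, 64.2, 54.5 and 69.6 at 3h, and 126, 124 and 152 at 24h (0.97 ± 0.19). Its last exon overlaps MACROD2 on the opposite strand. DUSP1, which acts on several MAP kinases, had 9.35, 10.8 and 12.6 at 0h, 11.2, 9.28 and 10.4 at 3h, and 14.8, 15.2 and 21.5 at 24h. For both genes the 24h libraries stood above the rest. DUSP1 had the highest T>C share of all members at 0h, 82.3% ± 6.05, which was 77.7% ± 7.65 at 24h. The kinase MAPK9 (0.99 ± 0.26), JKAMP (1.05 ± 0.81) and PAQR3 (0.55 ± 0.04) make up the rest. Of 35 genes on an FGF, ERK and feedback list, 8 were called higher at 24h (DUSP4, DUSP5, DUSP6, FGF18, FLRT3, PDGFRB, SPRED1 and SPRY1) and 1 lower (SPRY4), 3 of these being members. Of 22 immediate-early genes, 6 were called higher, KLF10 among them, and 1 lower (IER3).

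**Figure D3:**
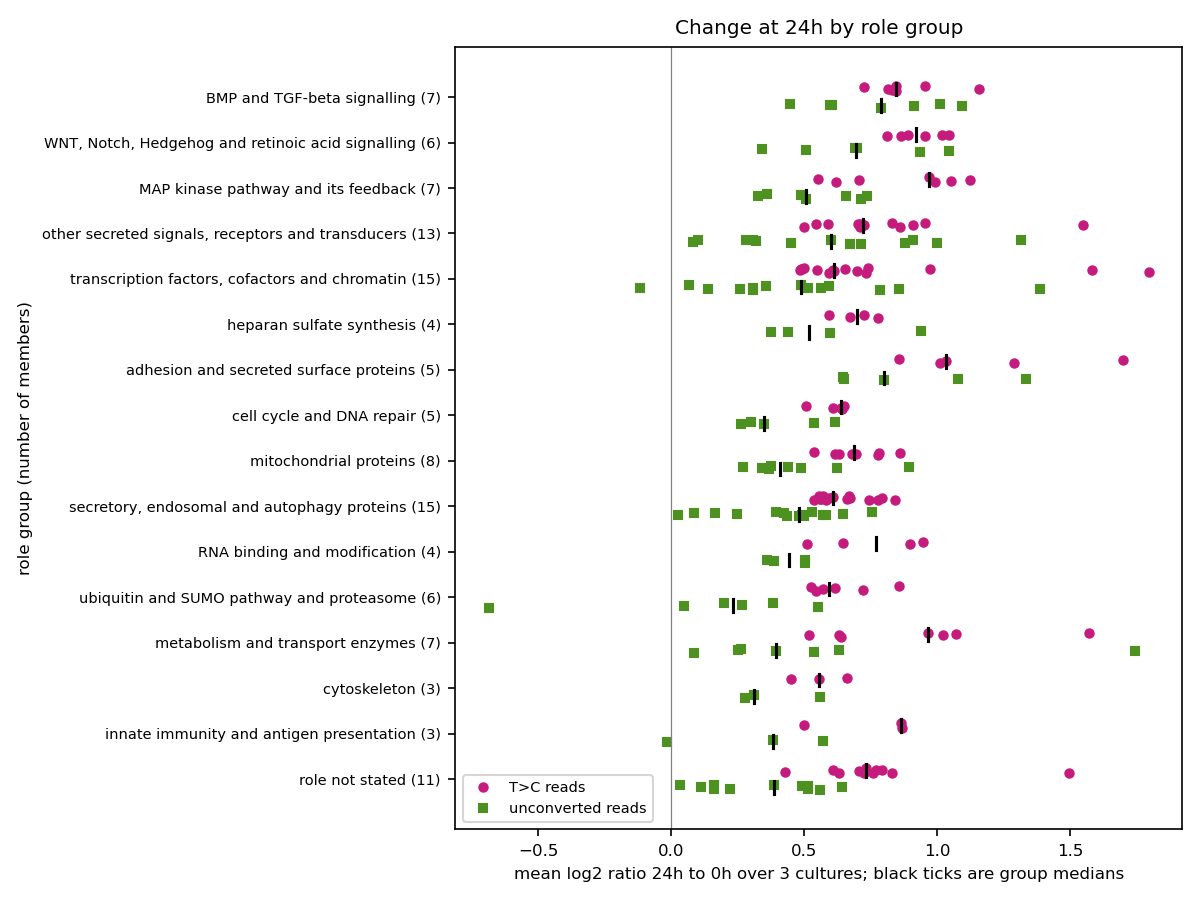
Mean log2 ratio of 24h to 0h over 3 cultures for each member, by role group, in T>C reads (circles) and unconverted reads (squares), with group medians as black ticks. Unconverted reads lie near the T>C reads in the BMP and TGF-beta group (medians 0.79 and 0.84) and far below them in the ubiquitin group (0.23 and 0.59).

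Secreted signals and receptors outside these pathways came to 13 members. CCL2, a chemokine that attracts monocytes, had 10.9, 16.4 and 11.1 T>C CPM at 0h, 5.43, 11.6 and 16.1 at 3h, and 33.7, 31.9 and 49.9 at 24h. The 24h libraries were clear of the others and the mean ratio was 1.55 ± 0.59, with 0.91 ± 0.73 in unconverted reads (SD, n = 3). Of 30 NF-kB, cytokine and chemokine genes tested, 4 were called higher at 24h (ACKR3, CCL2, ICAM1 and PTGS2). PLAUR, the urokinase receptor, had 42.2, 44.8 and 37.9 T>C CPM at 0h, 27.8, 52.8 and 46.0 at 3h, and 58.4, 68.2 and 51.5 at 24h, so that 24h in S9CC47_R6 lay below 3h in S9CC47_R5. NPR2, the receptor for C-type natriuretic peptide, had 2.02, 2.05 and 4.99 at 0h, 1.60, 5.57 and 4.03 at 3h, and 3.00, 4.56 and 8.40 at 24h. All its groups overlapped, and its last exon overlaps SPAG8 on the opposite strand. The vasopressin receptor AVPR1A is named after its values were seen: its unconverted ratio, 1.32 ± 0.34, exceeded its T>C ratio, 0.86 ± 0.42.

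Transcription factors, cofactors and chromatin proteins came to 15 members, CITED2 and PRDM16 included, and several are known from the crest and face. PAX3, a paired homeobox factor of the early crest, had 81.1, 59.5 and 69.0 T>C CPM at 0h, 85.9, 56.7 and 82.0 at 3h, and 111, 79.1 and 104 at 24h. Each culture was higher at 24h than at 0h, but the groups overlapped because S9CC47_R5 lay low at all times. The ratios of PAX3 were 0.48 ± 0.09 in T>C and 0.56 ± 0.03 in unconverted reads (SD, n = 3). PBX2, a TALE homeobox cofactor, had 32.6, 31.4 and 31.8 T>C CPM at 0h, 29.1, 29.7 and 44.3 at 3h, and 44.8, 47.4 and 53.5 at 24h. SIX2, a homeobox factor of frontonasal mesenchyme, had 9.10, 7.62 and 13.9 at 0h, 4.47, 6.40 and 17.0 at 3h, and 13.6, 10.6 and 21.7 at 24h. PBX2 was separate at 24h by a narrow margin, and SIX2 overlapped at every time. The fit gave SIX2 a log2 change in T>C reads of 0.11 (SE 0.352) at 24h, and SIX2 was called in no kind of read. ZNF506, a KRAB zinc finger gene, had 21.2, 18.5 and 15.5 T>C CPM at 0h, 31.6, 13 and 23.0 at 3h, and 29.3, 25.1 and 30.3 at 24h, with an unconverted ratio of −0.12 ± 0.77. Reads of such zinc finger genes, of PCDHB9, TAS2R14 and MYL12B can be shared with near-identical relatives, so their counts are uncertain. Of 41 homeobox factors of crest and face, 9 were called higher at 24h in T>C reads, PAX3 being the only member among them, and 3 lower.

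Members at the cell surface and in the matrix include NRCAM, PCDH18, PCDHB9, CRISPLD2 and PI15. Unconverted reads of all 5 were higher at 24h in all 3 cultures, beside 66.4% of all members and 22.9% of the 10731 genes. PCDH18, a delta protocadherin, had 191, 266 and 197 T>C CPM at 0h, 192, 209 and 280 at 3h, and 446, 367 and 527 at 24h. Its 24h libraries stood above all others, with a ratio of 1.03 ± 0.50 (SD, n = 3). NRCAM, a neuronal cell adhesion molecule, had 2.27, 1.47 and 2.03 at 0h, 0.319, 3.92 and 2.01 at 3h, and 6.70, 4.06 and 5.66 at 24h. The 24h libraries lay above all others, and the lowest value stands for 1 T>C read. Of 23 cadherins and protocadherins, 2 were called higher (PCDH18 and PCDH7) and 1 lower (PCDH1).

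A further 4 members, EXT1, GLCE, HS3ST3B1 and HS6ST1, encode enzymes that build heparan sulfate: EXT1 extends the chain, GLCE epimerises its uronic acid and the others add sulfate. Their T>C ratios at 24h ranged from 0.59 to 0.78 and their unconverted ratios from 0.37 to 0.94. Unconverted reads were higher in all 3 cultures for all 4, beside 66.4% of all members and 22.9% of the 10731 genes. HS3ST3B1 and EXT1 were called in T>C reads. Heparan sulfate binds FGFs, BMPs, WNTs and Hedgehog ligands at the cell surface. Of 22 enzymes of this pathway tested, on a list written after the members were known, 2 were called higher and 1 (SULF2) lower, with a median log2 change of 0.11.

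Cell cycle and DNA repair genes among the members were CDK6, RB1, ESCO2, ANAPC10 and POLI. CDK6, a kinase that pairs with D cyclins, had 138, 161 and 127 T>C CPM at 0h, 173, 142 and 180 at 3h, and 210, 246 and 210 at 24h. RB1, the retinoblastoma protein that CDK6 phosphorylates, had 17.2, 18.2 and 18.5 at 0h, 20.4, 16.7 and 25.6 at 3h, and 24.5, 27.9 and 32.9 at 24h. CDK6 was separate at 24h, while RB1 at 3h in S9CC47_R6 lay above its 24h level in S9CC13_R6. The ratios were 0.64 ± 0.06 and 0.64 ± 0.16 (SD, n = 3). Of 52 cell cycle genes, 3 were called higher (CCND2, CDK6 and CDKN1C) and 2 lower (MCM3 and MKI67).

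Metabolic enzymes and transporters numbered 7, CYP1B1 among them. SLC19A2, a thiamine transporter, had 2.27, 2.05 and 2.77 T>C CPM at 0h, 2.24, 2.89 and 3.16 at 3h, and 7.39, 3.55 and 6.21 at 24h. ACSL1, which activates long-chain fatty acids, had 1.52, 3.52 and 2.40 at 0h, 2.24, 2.89 and 3.74 at 3h, and 3.46, 5.32 and 8.04 at 24h. SLC19A2 was above all earlier libraries at 24h and ACSL1 was not, and neither was called. TIGAR, a phosphatase that lowers glycolytic flux and a p53 target, had 39.2, 45.7 and 41.2 T>C CPM at 0h, 34.5, 46.2 and 58.4 at 3h, and 53.8, 60.6 and 67.4 at 24h, with the 3h and 24h groups overlapping. Its last exon overlaps another coding gene model on the same strand. Of 30 p53 targets, 1 was called higher, which was no member, and 4 lower.

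PAQR9, a 7-pass membrane protein of the progestin and adipoQ receptor family, had 1.01, 2.93 and 2.03 T>C CPM at 0h, 0.958, 2.68 and 2.59 at 3h, and 9.47, 5.32 and 4.57 at 24h. Its groups at 24h and before did not overlap, but the ratio of 1.5 ± 1.07 (SD, n = 3) rested mostly on S9CC13_R6 (0.88 without it), and the lowest library held 3 T>C reads. IFI16, an interferon-inducible DNA sensor, had 2.53, 5.28 and 4.99 at 0h, 1.92, 3.51 and 0.863 at 3h, and 6.01, 9.13 and 8.77 at 24h. It was the member lowest at 3h (−0.95 ± 0.92), and its unconverted reads barely differed at 24h (−0.02 ± 0.37). B2M, the invariant chain of MHC class I, had 31.8, 42.2 and 37.2 T>C CPM at 0h, 40.6, 44.4 and 38.8 at 3h, and 44.6, 56.0 and 57.0 at 24h. It was separate at 24h by a narrow margin. Its ratios were 0.50 ± 0.10 in T>C and 0.57 ± 0.09 in unconverted reads.

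Housekeeping roles filled much of the rest: 15 members act in secretion, endosomes or autophagy, 8 in mitochondria, 6 in ubiquitin or SUMO handling and 4 in RNA binding. TMEM41B, a scramblase of the endoplasmic reticulum needed for autophagosomes, had 49.5, 66.8 and 64.3 T>C CPM at 0h, 56.5, 73.2 and 72.2 at 3h, and 87.5, 95.6 and 102 at 24h. CCDC91, a Golgi accessory protein, had 7.58, 6.74 and 8.32 at 0h, 9.90, 7.63 and 8.63 at 3h, and 11.1, 16.7 and 14.4 at 24h. ZC3H11A, an RNA-binding protein of mRNA export, had 190, 199 and 174 at 0h, 222, 181 and 213 at 3h, and 262, 276 and 264 at 24h. Each 24h library of these genes exceeded every earlier one, and the mean ratios were 0.66 ± 0.15, 0.84 ± 0.37 and 0.51 ± 0.08 (SD, n = 3). The last exon of ZC3H11A overlaps the gene span of ZBED6 on the same strand, so their reads may not be separable. T>C ratios ranged from 0.54 to 0.84 in the secretory group and from 0.54 to 0.86 among the mitochondrial genes, with unconverted medians of 0.48 and 0.41.

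The T>C share of a gene's reads was higher in the members than in other expressed genes already at 0h. Its median was 36.8%, 32.3% and 43.9% at 0h, 3h and 24h, beside 28.2%, 26.0% and 29.5% over the 10731 genes. At 0h the share exceeded 50% in 40 members (33.6%, against 14.5%) and lay under 20% in 25 (21.0%, against 31.4%). Role groups differed in it: the median at 0h was 62.3% in the MAP kinase group, 53.7% in the WNT, Notch, Hedgehog and retinoic acid group and 50.8% in the BMP and TGF-beta group, but 23.9% in the secretory and 19.8% in the mitochondrial group. Between genes, the share also depends on the uridines in the stretch read, so it is no direct measure of turnover. The members with the lowest shares at 0h were B2M (9.07%), CCDC91 (9.35%) and NPR2 (9.37%), and those with the highest were DUSP1 (82.3%), CITED2 (78.8%) and TMEM41B (77.3%).

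From 0h to 24h the share gained a median of 4.90 percentage points over the members and 0.99 over the 10731 genes. By culture the gain was 3.86, 5.24 and 5.07 points. It was positive on average in 106 members (89.1%, against 67.6%) and positive in all 3 cultures in 67 (56.3%, against 24.6%). Since the 24h libraries as a whole held more T>C reads, each share was also divided by its library's share and multiplied by the mean library share. The median gain is then 1.90 points, where that of the 10731 genes is −0.66. The share uses the T>C reads of the rule, so its gain in genes picked for higher T>C reads is a description. The largest gain was in OTUB2, a deubiquitinase, whose share was 14.7%, 37.2% and 22.6% at 0h, 11.6%, 48.9% and 31.8% at 3h, and 51.5%, 55.3% and 56.4% at 24h. It had the lowest unconverted ratio of the members, with 3.33, 1.99 and 2.78 CPM at 0h and 1.88, 1.37 and 1.19 CPM at 24h (−0.69 ± 0.27). Its T>C level was 2.53, 4.69 and 3.51 CPM at 0h, 1.60, 8.87 and 4.03 CPM at 3h, and 8.08, 6.59 and 5.66 CPM at 24h. The 3h library of S9CC47_R5 exceeded all those at 24h, and the last exon of OTUB2 overlaps DDX24 on the opposite strand. Strand was not tested. OTUB2 had only 5 to 43 T>C reads per library, and it was called in no kind of read. A lower mean share at 24h was seen in 13 members, TAS2R14 (−8.05 ± 15.1 points), AVPR1A (−7.71 ± 14.4) and SIX2 (−5.97 ± 17.0) furthest, each within the spread of its cultures.

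**Figure D4:**
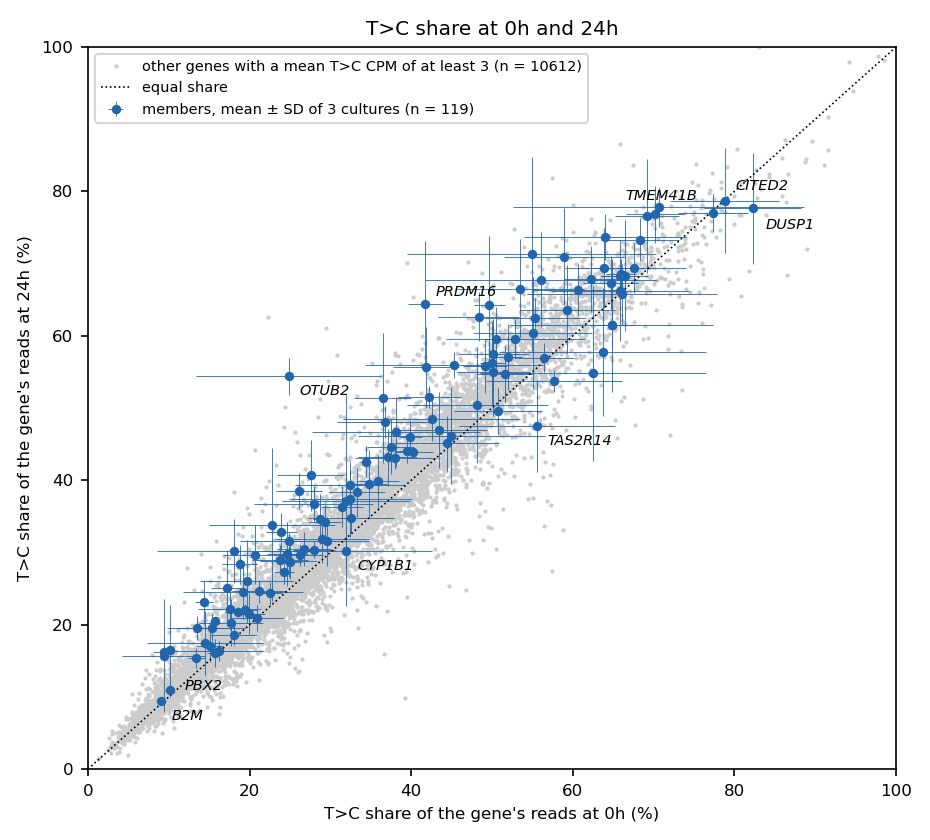
T>C share of a gene's reads (%) at 0h (horizontal) and at 24h (vertical). Members are points with the SD of 3 cultures, grey points are the other 10612 genes with a mean T>C CPM of at least 3, and the dotted line marks equal shares. Most members lie above the line, OTUB2 (24.8% at 0h, 54.4% at 24h, from 5 to 43 T>C reads per library) farthest.

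Unconverted reads show whether the standing RNA pool was also larger at 24h. Their mean log2 ratio of 24h to 0h had a median of 0.49 over the members and ranged from −0.69 to 1.74, beside a median of 0.03 over the 10731 genes. By culture the members' median was 0.48, 0.24 and 0.68. It was above 0 in 116 members, and 79 (66.4%) were higher in all 3 cultures, as were 22.9% of the 10731 genes. All 3 libraries at 24h lay above all 3 at 0h in 64 members, against 14.5%. DESeq2 called 42 of the 115 members tested higher at 24h (5.84% of 11529 genes). DUSP1, PAQR9, PRDM16 and SLC19A2 did not pass its filter on low values. With block and surrogate variable it called 17 at 24h (of 613 genes called higher or lower), and 3 to 17 with a culture left out (of 131 to 542). Against 3h it called 18 (2.34%), 37 with the culture as a block (of 1166), 5 with block and surrogate variable (of 254), and 4 to 13 with a culture left out (of 91 to 575). At 3h against 0h it called 2 (0.694%), AVPR1A with a log2 change of 1.00 (SE 0.292) and HEY1 with 0.40 (SE 0.0998). T>C and unconverted calls at 24h coincided in 27 members, 10 had the T>C call only and 15 the unconverted call only. In total reads 70 were called (7.11%), 32 with block and surrogate variable (of 831) and 1 to 26 with a culture left out (of 154 to 719). In the main fits 48 members were called in none of the 3 kinds of read. Unconverted reads come from the contrast that chose the members and partly from the same new molecules, so these counts support nothing about the choice.

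In most members the unconverted change was smaller than the T>C change. It was larger in 19, among them CYP1B1, CRABP2, AVPR1A, BAMBI, BMP5, PI15 and PAX3. It lay below 0.1 in 10, among them SLC19A2, IFI16, OTUB2, CCDC91, NPR2 and ZNF506. By role, the median unconverted ratio was highest in the adhesion group (0.80), the BMP and TGF-beta group (0.79) and the WNT, Notch, Hedgehog and retinoic acid group (0.70), and lowest in the ubiquitin group (0.23) and the cytoskeleton group (0.31).

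**Figure D5:**
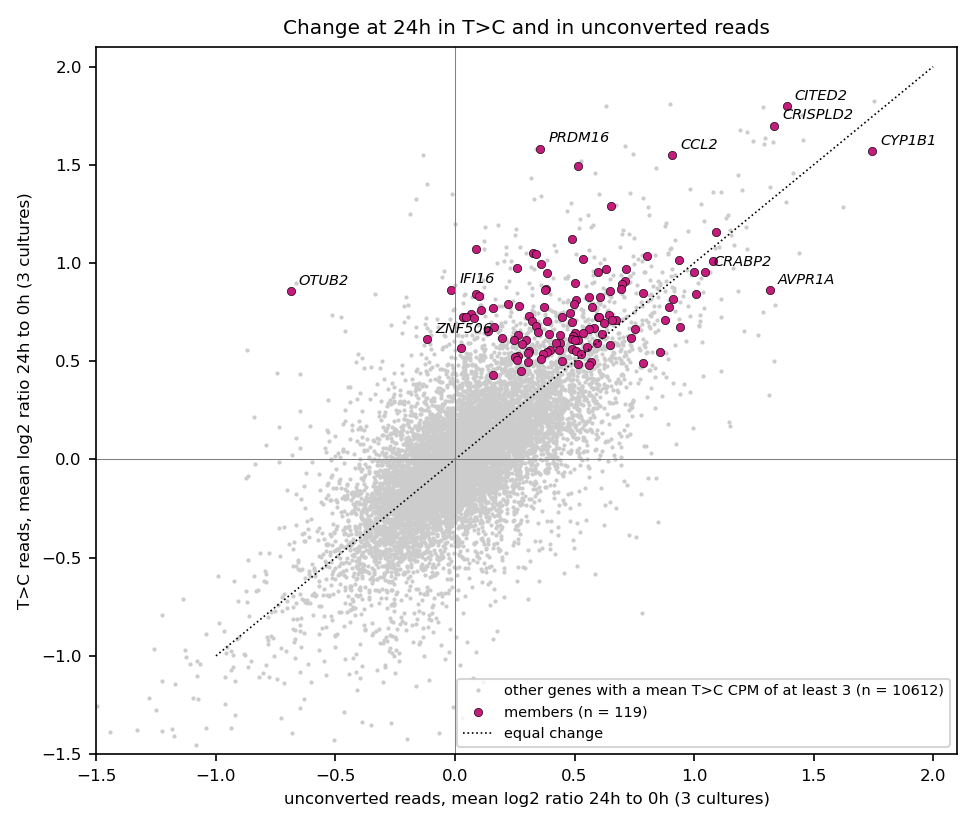
Mean log2 ratio of 24h to 0h over 3 cultures in unconverted reads (horizontal) and T>C reads (vertical). The 119 members are filled circles, grey points are the other 10612 genes with a mean T>C CPM of at least 3, and the dotted line marks equal change. Members lie above 0.4 vertically by the rule and spread from −0.69 (OTUB2) to 1.74 (CYP1B1) horizontally.

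All 119 members are protein-coding in GENCODE, and they lie on 23 chromosomes with at most 10 on any one. The last exon of 10 members overlaps a coding gene on the opposite strand and that of 6 one on the same strand. RefSeq promoter windows of 300 bases matched 100 of the members, and 9 short motifs were searched on both strands. The SOX core AACAAT occurred in 8 of the 100 (8%), in 4.80% of 8854 windows of genes with a mean T>C CPM of at least 3 and in 10.4% of all 27305 windows. These 8 stretches are shown because SOX factors bind this core and SOX9 was the protein removed. Each has 30 bases of GRCh38.p14 written along the gene, with the motif or its reverse complement in capitals:
CITED2: gaaacacagctcATTGTTggcagctgccgg
IFI16: agtttggattaaAACAATcagctttctttt
FAM174A: aacagtgaaaagAACAATgcttccaaaacg
TIAM2: gatgtttcttgaATTGTTttatttgtgttg
DUSP6: gacaaactcattAACAATtcatcaacacaa
TFPI: actgattacaaaAACAATcctggaaagtaa
AGK: tcaaatATTGTTgcgcaaaggatggatgga
ADD3: tATTGTTttatatccagattttgttatgtt

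The match in CITED2 begins 8 bases after the start site on chromosome 6 (chr6:139374624-139374653), and that in DUSP6 116 bases before it on chromosome 12 (chr12:89352600-89352629). The stretch of IFI16 is chr1:159008841-159008870, of FAM174A chr5:100535194-100535223, of TIAM2 chr6:154995124-154995153, of TFPI chr2:187554648-187554677, of AGK chr7:141551160-141551189 and of ADD3 chr10:109996123-109996152. CITED2, DUSP6 and TFPI are on the minus strand and the others on the plus strand. The cAMP response element TGACGTCA was found in 7 of 100 windows, beside 3.57% of the 8854 and 1.98% of all windows. It is shown as the motif of factors downstream of cAMP and stress kinases, again in capitals:
HHIP: cgcgagaagcggTGACGTCAaggggcgcgc
VGF: atgaatgaacatTGACGTCAatggggcggg
FAM174A: gcgctaggcctcTGACGTCAccaagtgcat
WASHC3: ccaccccgaaatTGACGTCAcaatctggac
CHMP1B: ggcgctgggctcTGACGTCAccacctgcgc
ANAPC10: ggtagggagataTGACGTCAttgagctgcg
DUSP1: tggcagggcgggTGACGTCAccgccccgtc

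These lie at chr4:144646069-144646098 (HHIP), chr7:101165631-101165660 (VGF), chr5:100535265-100535294 (FAM174A), chr12:102062170-102062199 (WASHC3), chr18:11851355-11851384 (CHMP1B), chr4:145098203-145098232 (ANAPC10) and chr5:172771303-172771332 (DUSP1). VGF, WASHC3, ANAPC10 and DUSP1 are read on the minus strand. The TATA box TATAAA was in 11% of member windows, 5.05% of the 8854 and 12% of all, AP-1 TGANTCA in 5%, 3.86% and 7.76%, and C/EBP TTGCNNAA in 7%, 6.62% and 10.6%. The E-box CAGCTG was in 16%, 15.9% and 17.7%, the CCAAT box in 35%, 37.7% and 35.7%, the TEAD motif GGAATG in 13%, 10.3% and 14.1%, and the GC box GGGCGG in 65%, 72.3% and 44.6%. Some of these motifs can overlap in a window, as in AGK, where the C/EBP match begins inside the SOX core. Members and windows differ in few counts, a match is a description of letters, and binding was not measured in these libraries.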

How the data were processed

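RNA of 9 libraries, 3 from each of 3 cultures, was alkylated and sequenced from the 3′ end (SLAM-seq). The authors deposited, for each library, counts per gene of all reads and of reads with T>C conversions, made with slamdunk on hg38. The strand used in counting and the 3′ regions are not given in the sources used here. From the deposited counts, unconverted reads were taken as total minus T>C reads, each kind was scaled to CPM by its own library sum, and log2 ratios used a pseudocount of 0.5 within culture. DESeq2 1.42.0 in R 4.3.3 was fitted over genes with at least 1 CPM in 3 libraries, with time, batch and 1 surrogate variable (sva 3.50.0), with calls at an adjusted p-value under 0.1 (Benjamini-Hochberg), and edgeR 4.0.16 was an alternative. The fits were also run on simulated counts with known changes at 24h. Those counts held no batch or culture effect, so they cannot decide between the models. Members, gene lists and tests were chosen with earlier results of these data known, and role groups and the heparan sulfate list were written after the members were known. Values in every library were given for 38 members: the 10 with the largest 24h ratios, the 5 with the highest mean T>C CPM, up to 3 on each fixed list, the 3 highest and 3 lowest in T>C share at 0h, and the 3 with the largest and 3 with the smallest change in unconverted reads. Replicate numbers are cultures. The main fit has no term for culture, so its p-values rest on the spread among the 9 libraries left after time, batch and surrogate variable. Same-numbered libraries share clone and batch in the titles, and their deviations from the group means correlated by 0.163 on average (−0.0564 to 0.476). Symbols matched GENCODE for 18451 of 18970 genes, and RefSeq by symbol for 11 and by synonym for 390. Alternatives were other scalings, pseudocounts, level limits, models and the removal of each culture.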

Additional observations from a re-analysis of the deposited data

How the results depend on the processing

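The number of genes meeting the rule was 119. It was 230 with T>C reads scaled to total reads and 195 to 566 with 1 culture left out (209 without S9CC13_R6, 566 without S9CC47_R5, 195 without S9CC47_R6), where the condition asks for fewer cultures. Not all of the 119 members met the rule in these sets. It was met by 86 of them (72.3%) without S9CC13_R6, 90 (75.6%) without S9CC47_R5 and 108 (90.8%) without S9CC47_R6. Other pseudocounts, TMM scaling and level limits gave 91 to 138. Members called in T>C reads at 24h against 0h numbered 37 of 599 genes called higher or lower, and 64 of 968 with edgeR. They numbered 59 of 722 and 21 of 354 with the replicate block without and with the surrogate variable. With a culture left out they numbered 4 of 54 (without S9CC13_R6) and 2 of 69 (without S9CC47_R6). Without S9CC47_R5 they numbered 16, of fewer than 354 genes. At 3h the count of 1 of 216 was 0 of 145 without the surrogate variable, 0 of 172 with the replicate block and 0 to 1 of 5 to 91 with a culture left out. For 24h against 3h, compared after seeing the data, the 16 of 137 became 25 of 267 with edgeR and 35 of 373 without the surrogate variable. It became 44 of 530 and 6 of 60 with the replicate block without and with the surrogate variable, and 2 to 5 of 4 to 30 with a culture left out. For unconverted reads at 24h the 42 of 1396 became 17 of 613 with block and surrogate variable and 3 to 17 of 131 to 542 with a culture left out. At 3h the 2 of 127 became 1 of 108 at an adjusted p under 0.05, 0 of 70 without the surrogate variable and 0 to 1 of 28 to 128 with a culture left out. Against 3h the 18 of 529 became 37 of 1166 and 5 of 254 with the block without and with the surrogate variable, and 4 to 13 of 91 to 575 with a culture left out. For total reads the 70 of 1751 became 32 of 831 with block and surrogate variable and 1 to 26 of 154 to 719 with a culture left out (leaving out S9CC47_R6 gave no fit, as the surrogate variable failed). The median share change of 4.90 points was 1.90 after division by the library share and multiplication by the mean library share. The median unconverted change of 0.49 was 0.38 to 0.61 with a culture left out. Removing any of the 3 cultures moved the call counts by over 1.5 times, except for unconverted reads at 24h against 3h without S9CC47_R6 (13) and T>C reads at 3h without S9CC13_R6 (1). Fewer samples enter these fits, and other causes were not tested. Of the named genes' alternatives, chosen after seeing the data, 302 differed from the reported value by less than 1 SD of the cultures and 2 by more. With a culture left out, the sign of the unconverted change turned in SLC19A2 (0.09 to −0.16 and −0.07), IFI16 (−0.02 to 0.10 and 0.07), CCDC91 (0.09 to −0.06) and ZNF506 (−0.12 to 0.32). DESeq2 did not test the first in unconverted reads and did not call the others.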
